A study of Sus scrofa with 6 samples.

Results

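The 10 genes described here are the gonadotropin receptors FSHR and LHCGR, 5 transcription factors of the gonad (GATA4, GATA6, WT1, RUNX1 and RUNX2), the estrogen receptor ESR2, the ligand KITLG and the gap junction gene GJA1. They were chosen by symbol for their roles in granulosa cells, with earlier results of these data known. All 10 matched a row among the 35670 pig gene identifiers of the count table. Stranded mRNA libraries were sequenced from primary granulosa cells of the pig (Sus scrofa), aspirated from healthy follicles of 3 to 6 mm and grown to about 70% confluency in a medium with 10% serum. Cultures of the heat group (n = 3 libraries) then spent 6 h at 42 °C, and those of the control group (n = 3 libraries) spent 6 h at 37 °C. Breed, animal, age and genotype are not given in the labels. The submitters call the libraries biological replicates but name no animals or cultures behind them, so the p-values below measure only the spread between these libraries.

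Granulosa cells line the ovarian follicle and nourish the oocyte. Follicle-stimulating hormone acts on them through FSHR, a G protein-coupled receptor that raises cyclic AMP and drives growth and estrogen synthesis. LHCGR, the related receptor for luteinizing hormone, is gained by granulosa cells late in follicle growth and is also carried by the theca cells outside the follicle. GATA4, GATA6 and WT1 are zinc finger factors that shape the somatic cells of the gonad, and in mouse RUNX1 helps to keep the granulosa cell fate. The granulosa cell signals to the oocyte with KIT ligand, the product of KITLG, and granulosa cells are joined to one another by channels of connexin 43, the product of GJA1.

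Library totals lay between 20411952 and 29606378 counts in heat and between 18711440 and 22599356 counts in controls. Libraries of a group were not equally alike. Heat 1 and heat 2 had a correlation of 0.991 across genes on log2 CPM (counts relative to library size), and control 2 and control 3 one of 0.990. Heat 3 stood at 0.916 and 0.909 to the other heat libraries, and control 1 at 0.901 and 0.905 to the other controls. Protein genes of the mitochondrial genome took 5.04 to 7.94% of the counts in heat and 12.4 to 25.3% in controls. Of the 10 granulosa markers checked, 8 had a symbol match. INHA, AMH, AMHR2 and HSD17B1, defining genes of follicular granulosa cells, were near 0 in all 6 libraries, the highest single value being 0.418 CPM for HSD17B1 in heat 2. INHBA (183, 154 and 182 CPM in heat against 387, 209 and 198 CPM in controls), FST, INHBB and NR5A2 had reads everywhere. The labelled cell type was therefore borne out by some of its markers only.

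No member passed the test over all genes. Of the 8 members with enough reads to be tested, 0 were called higher and 0 lower by edgeR's quasi-likelihood test (Benjamini-Hochberg adjusted p below 0.05), against 6.71% of 14242 tested genes called higher and 4.32% called lower, 11% in all. At an unadjusted p below 0.05 there were 2 of 8, GATA4 and ESR2, against 33.9% of all tested genes. DESeq2 and limma-voom each called 1 member, GATA4, higher. GATA4 was also the 1 tested member whose heat libraries all lay above its controls, a pattern seen in 20.9% of tested genes. FSHR and LHCGR had too few reads for the test and are given as raw reads.

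FSHR was nearly silent, and most of its few reads were in controls. It had 0, 2 and 0 reads in heat 1, 2 and 3, against 6, 49 and 15 reads in control 1, 2 and 3. Every heat library lay below every control, a pattern seen in 16.8% of tested genes, and control 2 alone held most of the reads. Scaled to depth by TMM, edgeR's correction for library composition, FSHR stood at 0.0310 ± 0.0537 CPM in heat and 1.09 ± 0.921 CPM in controls (SD, n = 3 each). With 2 reads over the heat libraries and 70 over the controls, the ratio of heat to control was 0.0223, and its 95% interval for counting error ran from 0.00265 to 0.0837. The exact permutation test over libraries gave p = 0.1 (two-sided), the smallest value that 3 against 3 allows. In a fit of all libraries without the filter on low counts the edgeR adjusted p was 0.00697. With 1 library left out FSHR passed the filter in 4 fits: without control 1 its edgeR adjusted p was 0.0198 and without heat 3 it was 0.0456, but without heat 1 or heat 2 it was 0.163 and 0.137, and after removal of control 2 or control 3 FSHR was not tested. A count of 0 in heat 1 and heat 3 allows up to 0.150 and 0.0917 CPM (3 reads). In bulk RNA, fewer cells carrying a transcript and less transcript per cell cannot be told apart, here or for any other gene below.

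LHCGR was at the limit of detection in both groups. It had 1, 1 and 6 reads in heat 1, 2 and 3 and 2, 1 and 0 reads in control 1, 2 and 3. The groups overlapped, and the ratio of heat to control, 2.08, had a 95% counting interval of 0.50 to 12.2 that includes equality (exact permutation test, two-sided, p = 0.5). A difference was not detectable at this depth. The receptor genes are neighbours on chromosome 3 of Sscrofa11.1, FSHR at 91607236 to 91775255 and LHCGR at 91964415 to 92023821 in the RefSeq annotation, 189159 bases apart. The span of LHCGR overlaps that of GTF2A1L, and the strand setting of the authors' counting is not given, so even these few reads are of uncertain origin.

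**Figure D1:**
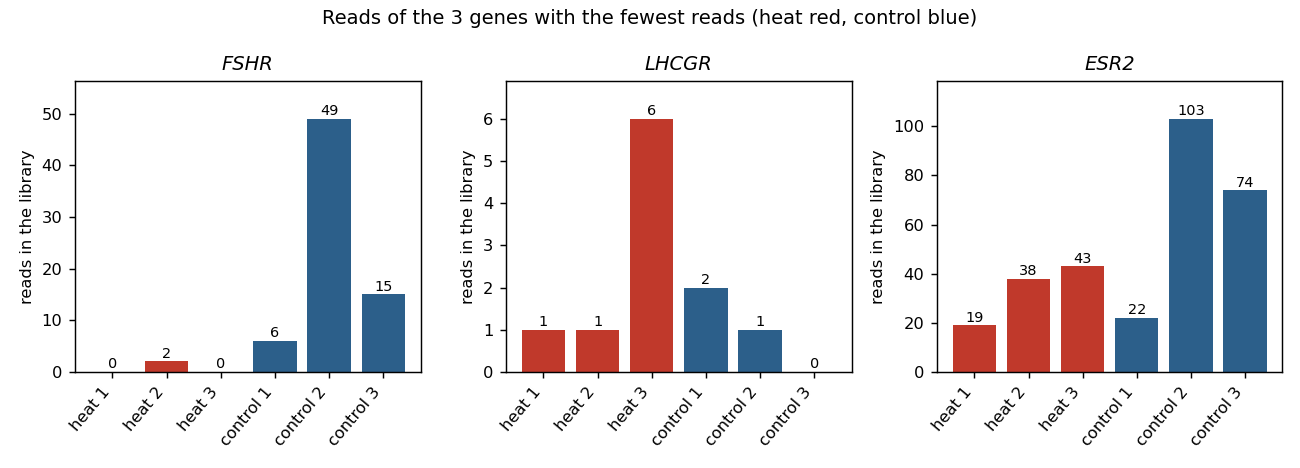
Bars give the raw reads per library (vertical axis, from 0) of FSHR, LHCGR and ESR2, with heat libraries in red left of controls in blue. FSHR and ESR2 were highest in control 2 and control 3, with 49 and 15 reads of FSHR there and 103 and 74 reads of ESR2, while LHCGR did not exceed 6 reads anywhere.

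GATA4, which activates steroidogenic and inhibin genes in granulosa cells, had the largest log2 fold change of the 8 tested members. It had 82.1, 81.5 and 66.1 CPM in heat 1, 2 and 3, against 38.3, 9.56 and 10.7 CPM in control 1, 2 and 3. Every heat library lay above every control, and control 1 lay between heat 3 and the other controls. The means were 76.6 ± 9.07 CPM in heat and 19.5 ± 16.2 CPM in controls (SD, n = 3 each), a log2 fold change (heat minus control) of 1.97 ± 0.56 (SE), or 3.93-fold. The edgeR adjusted p was 0.0592, just short of the threshold. It was 0.00677 by DESeq2, 0.0368 by limma-voom and 0.0168 without the filter on low counts. Without control 1 the log2 fold change was 2.89 (edgeR adjusted p = 0.00555), and leaving out any 1 of the other libraries gave values between 1.62 and 2.05 with edgeR adjusted p-values from 0.0597 to 0.195. GATA4 lies on chromosome 14 at 14858470 to 14938156.

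GATA6, a close relative that acts alongside GATA4 in the mouse follicle, followed the same libraries with a smaller difference. It had 94.6, 91.8 and 71.6 CPM in heat 1, 2 and 3, against 72.4, 19.3 and 20.3 CPM in control 1, 2 and 3. Control 1 lay at the level of heat 3, so the groups overlapped. The means were 86.0 ± 12.5 CPM in heat and 37.3 ± 30.4 CPM in controls (SD, n = 3 each), a log2 fold change of 1.21 ± 0.54 (SE; edgeR adjusted p = 0.161). Without control 1 it was 2.10, with an edgeR adjusted p of 0.00749. GATA6 lies on chromosome 6 at 107282709 to 107314725, a span shared with another annotated protein gene, so its reads are less certain than those of GATA4.

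**Figure D2:**
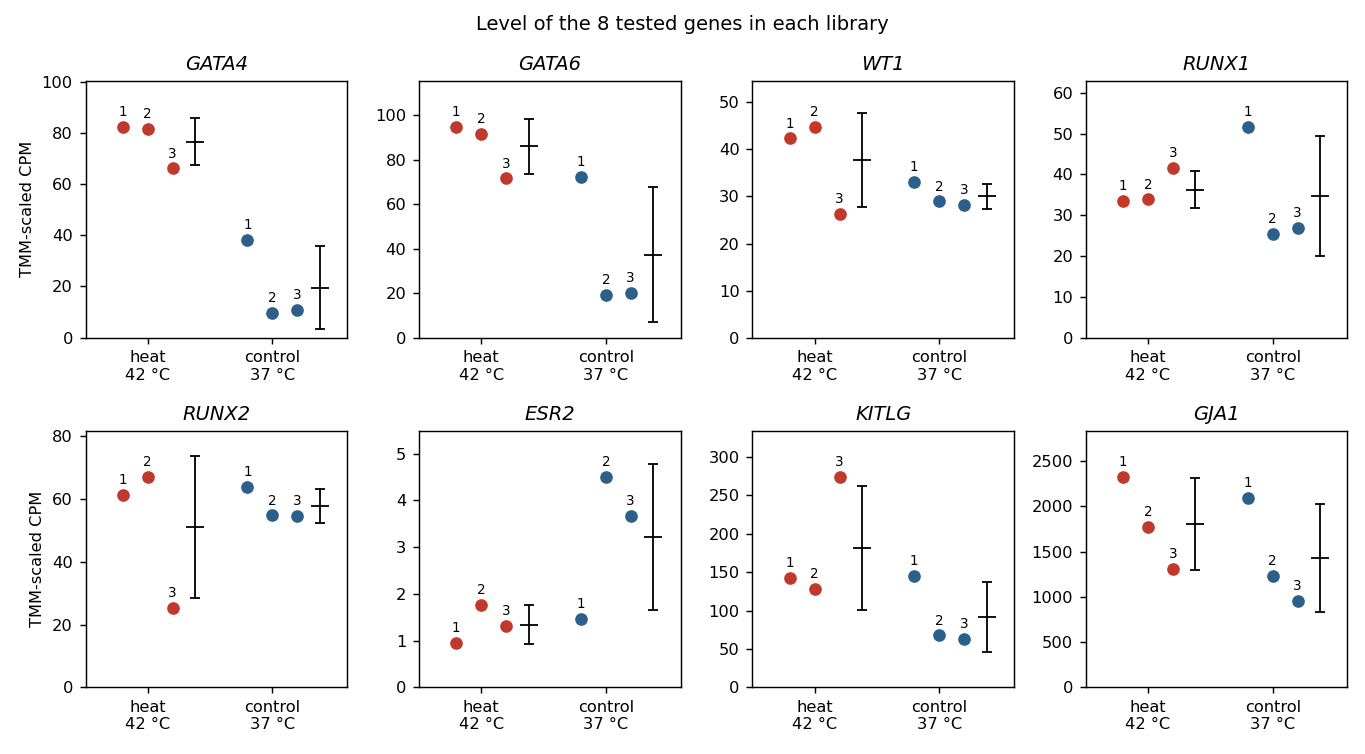
Points give the TMM-scaled CPM (linear vertical axis from 0) of the 8 tested genes in heat (red, left) and control (blue, right) libraries, numbered by replicate. The black bar is the mean with its SD (n = 3). Heat and control separate for GATA4 alone, and control 1 lies above control 2 and control 3 for every gene but ESR2.

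The balance of GATA4 and GATA6 within a library separated the groups without overlap. This ratio does not depend on how libraries are scaled, and it was computed after the values had been seen, as 1 of 4 ratios between members. There were 0.868, 0.888 and 0.923 reads of GATA4 per read of GATA6 in heat 1, 2 and 3, against 0.528, 0.497 and 0.528 in control 1, 2 and 3. Control 1, which resembled the heat libraries in the level of GATA6, had the ratio of the other controls. The mean ratio was 0.893 ± 0.0277 in heat and 0.518 ± 0.0182 in controls (SD, n = 3 each; exact permutation test on the log ratio, two-sided, p = 0.1, the smallest possible). The lowest bound of the 95% counting intervals in heat was 0.812 and the highest in controls was 0.624. The ratio of RUNX1 to RUNX2 did not separate the groups, at 0.548, 0.506 and 1.64 in heat 1, 2 and 3 against 0.806, 0.463 and 0.493 in control 1, 2 and 3 (exact permutation p = 0.5). The ratio of GATA4 to WT1 also separated the groups without overlap (exact permutation p = 0.1). It was 1.94, 1.82 and 2.51 in heat 1, 2 and 3, against 1.16, 0.330 and 0.380 in control 1, 2 and 3. For KITLG to GJA1 the exact permutation p was 0.4. How often other pairs of genes separate the groups was not counted, and 37.8% of single tested genes did so. Adjusted over the 4 ratios by the Benjamini-Hochberg method, the exact permutation p-values were 0.2 for both ratios of GATA4 and 0.5 for the others.

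**Figure D3:**
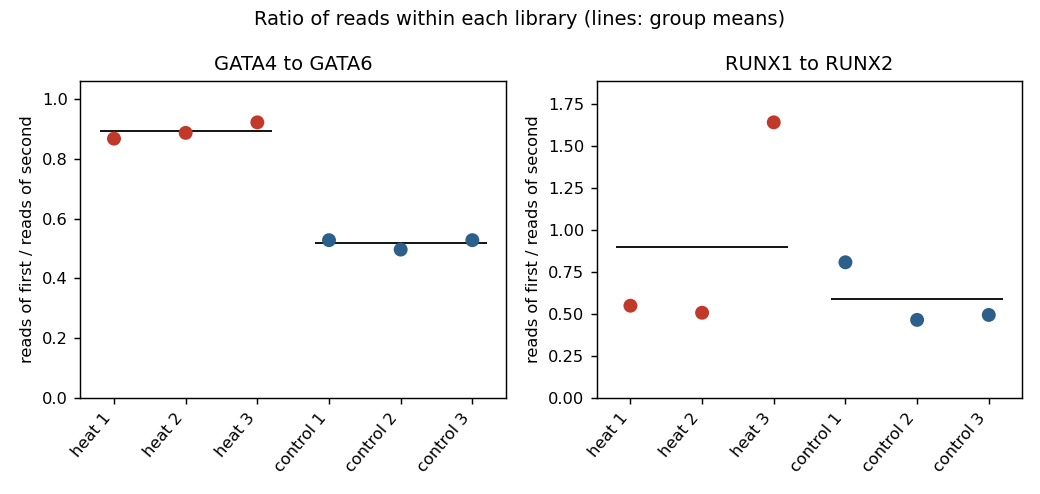
Points give the reads of the first gene divided by the reads of the second in each library (vertical axis, from 0), heat in red left of control in blue, and lines give group means. The 3 heat libraries lie between 0.868 and 0.923 for GATA4 to GATA6 and the 3 controls between 0.497 and 0.528, whereas heat 3 alone stands out for RUNX1 to RUNX2.

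WT1, a zinc finger factor that marks the supporting cells of the gonad and also the ovarian surface, had 42.3, 44.7 and 26.4 CPM in heat 1, 2 and 3. It had 33.0, 28.9 and 28.2 CPM in control 1, 2 and 3. Heat 3 was the lowest of all 6 libraries, so the groups overlapped, and the log2 fold change was 0.33 ± 0.31 (SE; edgeR adjusted p = 0.467). Its control spread, with a coefficient of variation of 8.73%, was the smallest of the 8 tested members. WT1 lies on chromosome 2 at 28411467 to 28456007 and overlaps an annotated long non-coding RNA, whose reads cannot be told apart from its own if the counting ignored strand.

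The RUNX factors bind DNA together with the shared partner CBFB. RUNX1 had 33.5, 33.9 and 41.5 CPM in heat 1, 2 and 3, against 51.5, 25.4 and 26.9 CPM in control 1, 2 and 3. The highest and the lowest library were both controls, and the log2 fold change was 0.07 ± 0.36 (SE; edgeR adjusted p = 0.906), with a negative sign without heat 3, control 2 or control 3. RUNX2, known in mouse for its induction around ovulation and for its role in bone, had 61.2, 67.0 and 25.3 CPM in heat 1, 2 and 3, against 64.0, 54.8 and 54.6 CPM in control 1, 2 and 3. Heat 3 stood below the other 5 libraries, and the log2 fold change was -0.18 ± 0.40 (SE; edgeR adjusted p = 0.774). It was 0.13 without heat 3. The span of RUNX2 on chromosome 7, 40106581 to 40353304, overlaps SUPT3H. CBFB stood at 41.5 ± 11.3 CPM in heat and 43.8 ± 11.6 CPM in controls (SD, n = 3 each; edgeR adjusted p = 0.890). RUNX3, the third member of the family, had 17 reads over the heat libraries and 2 over the controls and was not tested.

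ESR2, estrogen receptor beta and the main estrogen receptor of granulosa cells, had few reads. There were 19, 38 and 43 reads in heat 1, 2 and 3, against 22, 103 and 74 reads in control 1, 2 and 3, which scaled to 0.947, 1.77 and 1.31 CPM in heat and 1.47, 4.50 and 3.67 CPM in controls. Control 1 lay within the heat libraries, while control 2 and control 3 lay above all of them. The log2 fold change was -1.26 ± 0.52 (SE; edgeR adjusted p = 0.133), and without control 1 it was -1.63 (edgeR adjusted p = 0.0269). ESR1, estrogen receptor alpha, had 49 reads over the heat libraries and 69 over the controls and was not called (edgeR adjusted p = 0.446).

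KITLG was higher in heat on average, but the size of the difference depended on single libraries. It had 142, 128 and 274 CPM in heat 1, 2 and 3, against 144, 67.6 and 62.6 CPM in control 1, 2 and 3. Heat 3 was far above the rest, and control 1 lay above heat 1 and heat 2. The log2 fold change was 0.98 ± 0.47 (SE; edgeR adjusted p = 0.180). It was 1.45 without control 1 (edgeR adjusted p = 0.0438) and 0.54 without heat 3 (edgeR adjusted p = 0.347). KIT, the receptor of this ligand, known in the ovary from oocytes and theca cells, had 186, 186 and 29.0 CPM in heat 1, 2 and 3, against 89.8, 43.0 and 32.0 CPM in control 1, 2 and 3. Ligand and receptor differed in their order: heat 3 had the most KITLG and the least KIT of the 6 libraries. KIT was not called (log2 fold change 1.28 ± 0.71, SE; edgeR adjusted p = 0.231), except without heat 3 (edgeR adjusted p = 0.0386) and without both heat 3 and control 1 (log2 fold change 2.29; edgeR adjusted p = 5.86e-13), a fit that leaves the pair of nearly alike libraries in each group.

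GJA1 had the most reads of the 10 genes, from 19183 in control 3 to 46615 in heat 1. It had 2325, 1776 and 1310.1 CPM in heat 1, 2 and 3, against 2097, 1234 and 951 CPM in control 1, 2 and 3. The groups overlapped, with control 1 second of the 6 libraries. The log2 fold change was 0.34 ± 0.47 (SE; edgeR adjusted p = 0.634). The coefficient of variation between libraries was 28.2% in heat and 41.8% in controls. GJC1, which encodes connexin 45, fell to 42.3 ± 6.69 CPM in heat, against 94.8 ± 17.8 CPM in controls (SD, n = 3 each). Its log2 fold change was -1.16 ± 0.30 (SE; edgeR adjusted p = 0.0470), and it was not called without heat 1, heat 2, control 2 or control 3.

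**Figure D4:**
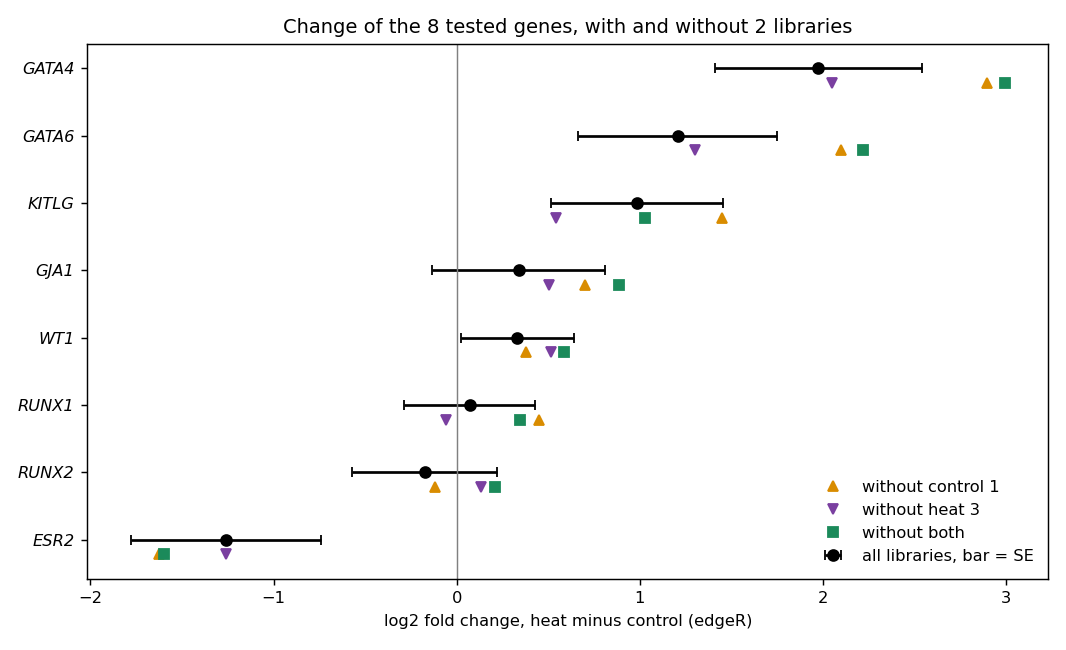
Black points give the log2 fold change, heat minus control, of the 8 tested genes with its SE (horizontal axis). Coloured marks give the same without control 1, without heat 3 and without both. GATA4 runs from 1.97 with all libraries to 2.99 without both, and RUNX1 and RUNX2 lie on either side of 0.

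The order of the libraries recurred across members. Control 1 was the highest control for 7 of the 8 tested members, an order held by 43.6% of all tested genes, and ESR2 was the exception. For WT1 and RUNX2 this order held only after scaling, with a TMM factor of 0.800 for control 1. Their raw reads were fewest in control 1, at 495, 663 and 568 for WT1 in control 1, 2 and 3. For RUNX2 they were 958, 1254 and 1102. Heat 3 was the lowest heat library for 5 of the 8, against 46.4% of all tested genes, and the highest for KITLG and RUNX1. With control 1 and heat 3 both left out, 6 members (GATA4, GATA6, WT1, RUNX1, KITLG and GJA1) were called higher and 2 (ESR2 and FSHR) lower. That fit rests on libraries that are nearly alike within each group, and it called 6285 genes higher and 5857 lower in all. With the alike libraries summed into 1 sample each, 0 members were called and 2 genes passed in all.

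Some markers of other cells were ordered across the libraries like members. The summed level of the 8 matched stromal markers, among them COL1A1, was 87938, 79396 and 28088 CPM in heat 1, 2 and 3 and 59137, 7474 and 6741 CPM in control 1, 2 and 3. Collagen genes made up nearly all of this sum. GATA4 and GATA6 were likewise lowest in control 2 and control 3, which correlated at 0.990 with each other. Control 1 was the highest control for 43.6% of all tested genes. Other stromal markers had other orders: DCN and LUM were highest in control 1, at 107 and 349 CPM. FAP, a fibroblast surface protease, was called lower, with 13.0, 12.2 and 6.23 CPM in heat 1, 2 and 3, against 19.6, 52.8 and 42.9 CPM in control 1, 2 and 3 (edgeR adjusted p = 0.0453). The 8 theca markers summed to between 61.5 and 180 CPM in heat and between 11.3 and 103 CPM in controls, but INSL3 had no read and CYP17A1 did not exceed 0.200 CPM. The sum of the 6 leukocyte markers ran the other way, from 1.31 to 4.34 CPM in heat and from 3.34 to 63.6 CPM in controls. Control 1, at 3.34 CPM, lay within the heat range. LYZ made up most of the sum in control 2 and control 3. It was called lower in heat (edgeR adjusted p = 0.0447), though the groups overlapped. CD14, at 1.63 ± 0.819 CPM in heat and 1.54 ± 0.356 CPM in controls (SD, n = 3 each), was not called (edgeR adjusted p = 0.930). Nor was CD68 (edgeR adjusted p = 0.435). FSHR and ESR2 were also highest in control 2 and control 3, but in another order. The leukocyte sum was 31.2 CPM in control 2 and 63.6 CPM in control 3. FSHR had 2.14 and 0.744 CPM there, and ESR2 had 4.50 and 3.67 CPM. Control 1 was the lowest control for 46.1% of all tested genes. PTPRC, the pan-leukocyte marker, had no read in heat and stood at 0, 1.53 and 3.17 CPM in control 1, 2 and 3. The 6 smooth muscle markers summed to 7814, 7501 and 17433 CPM in heat 1, 2 and 3. Their sum was 11594, 10679 and 11019 CPM in control 1, 2 and 3. MYH11 lay lower in heat without overlap and DES higher without overlap, and the other markers of the list overlapped. Neither MYH11 nor DES was called (edgeR adjusted p = 0.272 and 0.132). The 4 matched surface epithelium markers summed to between 9.92 and 13.9 CPM in heat and between 3.89 and 6.34 CPM in controls. KRT8 carried most of the sum in heat and was called higher (edgeR adjusted p = 0.0477), as was UPK3B (edgeR adjusted p = 0.0309). UPK1B of the same list lay lower without overlap, at 0.463 ± 0.247 CPM in heat and 1.86 ± 0.566 CPM in controls (SD, n = 3 each), and was not called (log2 fold change -2.03; edgeR adjusted p = 0.0605). The 4 matched endothelial markers reached at most 10.8 CPM in heat and 9.67 CPM in controls, with CDH5 at 0. Of the 5 matched oocyte markers ZP2 and ZP3 were at 0 throughout and BMP15 had no read in heat, while the list summed to between 9.93 and 20.2 CPM in heat and between 6.25 and 7.68 CPM in controls. GDF9, an oocyte growth factor, carried that sum and was called higher, with 18.5, 19.2 and 9.41 CPM in heat 1, 2 and 3, against 6.48, 6.07 and 5.16 CPM in control 1, 2 and 3 (edgeR adjusted p = 0.0477). None of FAP, KRT8, UPK3B, GDF9 and LYZ was called without heat 1, heat 2, control 2 or control 3, nor LYZ without heat 3. Over all alternatives that tested them, FAP was called in 9 of 17, GDF9 in 8 of 17, KRT8 in 10 of 16, UPK3B in 11 of 16 and LYZ in 4 of 13. The part of any of these cells in the levels of the members was not tested.

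**Figure D5:**
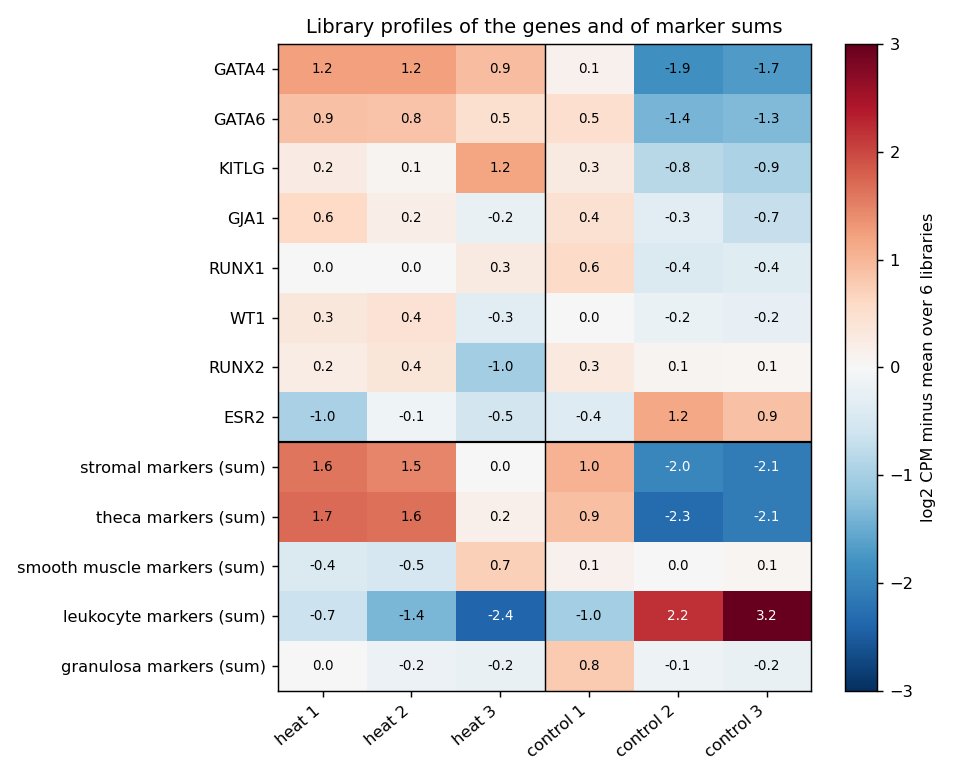
Cells give log2 CPM minus its mean over the 6 libraries for the 8 tested genes (above the line) and for the log2 summed CPM of 5 marker lists (below), with heat libraries left of controls. Control 2 and control 3 are low for GATA4, GATA6 and the stromal and theca sums, and high for ESR2 and the leukocyte sum.

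The members did not share 1 profile. Likeness was measured as the root mean square difference between log2 CPM profiles centred on their own mean over the 6 libraries, where 0 means the same profile. Among the 28 pairs of tested members, WT1 and GJA1 were closest (0.302), GATA4 and GATA6 stood at 0.393, and GATA4 and ESR2 were farthest apart (2.04). Among 9749 other genes with a symbol, the 2 nearest to GATA4 were HTT (0.0714) and SIPA1L3 (0.0910), against a median distance of 1.36. For GATA6 they were NOD1 (0.0517) and CREB3L2 (0.0562). The nearest were KHDC4 and FHIP2A for WT1, ANKFY1 and PRIMPOL for RUNX1, and SRSF6 and CCNT2 for RUNX2, at distances between 0.0466 and 0.0633. For ESR2 they were OSCP1 (0.0583) and N4BP2L1 (0.159), for KITLG AK1 (0.0887) and TEAD1 (0.113), and for GJA1 ADGRA3 (0.11) and RARRES1 (0.114). The smallest of so many distances is small by choice, and these values only describe 6 libraries.

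Genes that work with the members were described through 4 lists. Of 22 tested gonadal transcription factors and cofactors, 4 rose in heat (18.2%), none fell and 18 did not pass, beside the 6.71% called higher and 4.32% called lower over all tested genes. The median log2 fold change of this list was 0.82, against 0.05 over all tested genes; the lists were chosen with results of these data known. ZFPM1, a cofactor that binds GATA factors, rose to 22.7 ± 8.15 CPM in heat, against 2.18 ± 1.95 CPM in controls (SD, n = 3 each; log2 fold change 3.41 ± 0.67, SE; edgeR adjusted p = 0.0334). It had 29.3, 25.3 and 13.6 CPM in heat 1, 2 and 3, against 4.41, 0.830 and 1.29 CPM in control 1, 2 and 3, without overlap. ZFPM2, the GATA4 partner of the mouse gonad, had 8.82 ± 2.90 CPM in heat and 9.27 ± 3.74 CPM in controls (SD, n = 3 each; edgeR adjusted p = 0.920). The homeobox gene SIX4 had 98.2, 111 and 77.3 CPM in heat 1, 2 and 3, against 21.1, 8.91 and 8.78 CPM in control 1, 2 and 3 (edgeR adjusted p = 0.0276). In mouse it acts in the precursors of the gonad. The forkhead factor FOXO3 rose as well, to 77.4 ± 18.7 CPM in heat, against 24.6 ± 10.6 CPM in controls (SD, n = 3 each; edgeR adjusted p = 0.0421). NR5A1, the steroidogenic factor, had 6.38 ± 1.6 CPM in heat and 4.60 ± 1.86 CPM in controls (SD, n = 3 each) and was not called (edgeR adjusted p = 0.448). FOXL2 was not analysed here. None of the 4 genes was called without heat 1, heat 2, control 2 or control 3.

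Of 24 tested genes of FSH and LH receptor signalling, 1 rose (4.17%), none fell and 23 did not pass, with a median log2 fold change of 0.87. Over all tested genes 6.71% were called higher. At an unadjusted edgeR p below 0.05 there were 9 of 24, against 33.9% of all tested genes. Without overlap, 7 of 24 lay higher in heat, against 20.9% of all tested genes, and 1 lay lower, against 16.8%. The riser was GRK2, a kinase that desensitizes G protein-coupled receptors, at 30.5, 30.8 and 21.2 CPM in heat 1, 2 and 3, against 12.0, 7.16 and 8.83 CPM in control 1, 2 and 3 (edgeR adjusted p = 0.0355). It too was not called without heat 1, heat 2, control 2 or control 3. None of 12 tested FSH-responsive granulosa genes passed (0 also by DESeq2 or limma-voom), beside the 11% of all tested genes called by edgeR. At an unadjusted edgeR p below 0.05 there were 2 of 12, against 33.9% of all tested genes. The median log2 fold change of this list was 0.66, against 0.05 over all tested genes. Its 2 genes with the highest mean CPM, VCAN and INHBA, had edgeR adjusted p-values of 0.972 and 0.272. VCAN, a matrix proteoglycan, had 757 ± 194 CPM in heat and 742 ± 387 CPM in controls (SD, n = 3 each). Of 14 tested genes of oocyte contact and cell junctions, none rose, 2 fell (14.3%) and 12 did not pass, against 6.71% called higher and 4.32% called lower over all tested genes, with a median log2 fold change of 0.33. Beside GJC1, the faller was DAAM1, a formin that organizes actin filaments, with 34.6, 33.6 and 56.5 CPM in heat 1, 2 and 3, against 103, 122 and 90.4 CPM in control 1, 2 and 3 (edgeR adjusted p = 0.0440). Without the low-count filter neither was called (edgeR adjusted p = 0.0792 for GJC1 and 0.0520 for DAAM1), nor was DAAM1 without heat 1, heat 2, control 2 or control 3.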

How the data were processed

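Per the labels' protocols, the submitters made stranded mRNA libraries with a KAPA kit and sequenced them as paired reads of 150 bases. The submitters' processing notes name FastQC 0.11.4, Trim Galore, STAR and Sscrofa11.1; no counting tool, strand setting or annotation release is named there. The deposited raw table holds counts per Ensembl gene. The deposited normalized table holds a signal, the counts of 13298 genes divided by 1 size factor per library; 100% of its values became whole reads within a tolerance of 1e-06, and edgeR on these reads called 1631 genes. Symbols came from the reference table (15623 of 35670 identifiers), and coordinates from RefSeq genes on Sscrofa11.1 matched by symbol. Levels of different genes were not compared, since no transcript lengths were used.

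Heat was compared with control on the raw counts with edgeR 4.0.16 in R 4.3.3 (two-sided quasi-likelihood test), using TMM factors, robust dispersions, filterByExpr (minimum count 10) and Benjamini-Hochberg adjustment over 14242 genes. Standard errors were derived from the F statistic. Replicates had a common coefficient of variation of 43.6%. Intervals are exact, at the 95% level, and cover counting error only. The test was tried on simulated counts of independent libraries with known changes. Pairs of nearly alike libraries, as found in these data, were not simulated. Alternatives were RLE size factors, other filters, a block for replicate number, leaving out libraries, summing libraries nearly alike, DESeq2 1.42.0, limma 3.58.1 (voom, and on the normalized table with pseudocounts of 1 and 0.5), and a threshold of 0.01; the fit to recovered reads was added after seeing the data.

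The members and the 12 gene lists were chosen with earlier results of these data known. Named are the 10 members, KIT, CBFB, RUNX3, ZFPM2, NR5A1, ESR1 and FOXL2, up to 4 called genes per pathway list by absolute log2 fold change (or, with no call, the 2 genes of highest mean CPM), and the 2 genes most like each tested member among genes with a mean log2 CPM of at least 1. Marker genes are named from their lists. Symbols without a match in the lists were not analysed here. Some called genes are counted with their lists but not reported here.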

Additional observations from a re-analysis of the deposited data

How the results depend on the processing

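With all libraries, 956 genes were called higher and 615 lower, 0 members either way, and 1, 0, 4 and 0 genes higher and 0, 0, 0 and 2 lower among receptor signalling, FSH-responsive genes, gonadal factors and oocyte contact, the order used below. Without the low-count filter 1607 genes were higher, with 1 member higher (GATA4) and 1 lower (FSHR), 3 signalling genes higher and 0 contact genes lower. A filter of 10 CPM in 3 libraries gave 532 higher and 396 lower, and log2 fold changes of 0.00041 for RUNX2 and 0.028 for CBFB. DESeq2 called 2118 higher and 1792 lower, with 1 member higher, 4 signalling genes higher and 1 lower, and 7 gonadal factors higher. limma-voom and limma on the normalized table with either pseudocount called 1 member higher, GATA4. Recovered reads gave 2 signalling genes higher, and a threshold of 0.01 left 9 genes higher and 1 lower. The fold change of VCAN was -0.018 with RLE factors and with DESeq2.

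Leaving out each library in turn gave 0 to 3021 genes higher and 0 to 2713 lower, 0 to 3 members higher and 0 to 2 lower. The lists ranged over 0 to 10, 0 to 5, 0 to 9 and 0 to 5 genes higher and 0 to 4, 0 to 1, 0 to 1 and 0 to 2 lower. The log2 fold change ranged from -0.14 to 0.45 for RUNX1, -0.40 to 0.13 for RUNX2, -0.34 to 0.071 for CBFB, -0.36 to 0.28 for ZFPM2 and -0.25 to 0.52 for VCAN. Without both control 1 and heat 3, 6285 genes were higher and 5857 lower, 6 members higher and 2 lower, and 14, 9, 14 and 9 list genes higher and 7, 2, 5 and 3 lower, with fold changes of 0.21 for RUNX2, 0.0044 for ZFPM2 and -0.070 for NR5A1. With libraries nearly alike summed, 2 genes were higher and 0 lower, 0 in every list, with fold changes of -0.084 for RUNX1, -0.32 for VCAN and 0.095 for CBFB; fewer samples entered that fit. The cause of the other shifts was not tested.

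The labels do not say whether equal replicate numbers mark paired samples. Deviations from the group means correlated at 0.299, -0.232 and 0.223 for numbers 1, 2 and 3. With n = 3 libraries a group, these values cannot decide whether the samples are paired. With the number as a block, 2104 genes were higher and 1300 lower, with 2 members higher (GATA4 and GATA6) and 8, 3, 7 and 2 list genes higher. GATA4 was called in 8 of 18 alternatives, with a positive fold change in all 18. Depth limits FSHR and LHCGR, which had 2 and 8 reads over the heat libraries and 70 and 3 over the controls.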
